A study of Mus musculus with 14 samples.

Results

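The 9 genes described here encode 2 metallothioneins (Mt1 and Mt2) and 7 heat shock proteins (Hspa1a, Hspa1b, Hspa8, Hsph1, Dnajb1, Hsp90aa1 and Hspb1). They were chosen by name, with earlier results of these data known, and all 9 were found among the 21878 genes listed for each mouse. All 9 also passed the filter on low values, which left 14912 genes for the tests. RNA-seq had been run on kidneys of 14 male C57BL/6J mice in 4 groups. Diabetic groups held 4 Cfb-/- and 4 WT mice, and control groups 3 mice of either genotype. Cfb-/- mice carry a global knockout of Cfb (named a knockdown in the labels), the gene of complement factor B, and the WT mice were their littermates. Diabetes was induced from 8 weeks of age with a diet of 60% fat for 4 weeks followed by streptozotocin, a toxin of the insulin-producing beta cells, at 60 mg/kg for 5 days. Control mice received chow with 10% fat and citrate buffer, although the treatment field of the labels carries the diabetic protocol for them too, and groups follow the titles. Mice were killed 21 weeks after streptozotocin, and the labels give 34 weeks as the time. Each sample is the kidney of 1 mouse, and in such bulk tissue fewer cells of a type and less RNA per cell cannot be told apart. Values are FPKM, the fragments of a gene scaled to the length of its transcript and to the mapped fragments of the library, so that levels of different genes can be compared per length.

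Metallothioneins are small cysteine-rich proteins that bind zinc, copper and cadmium. Their genes are switched on by the zinc-sensing factor MTF1 and by glucocorticoids, and in the kidney the proteins are known for binding metals in tubular cells. Heat shock proteins are chaperones that keep other proteins folded. Heat shock factor 1 binds heat shock elements in promoters and switches on the inducible members when unfolded protein builds up, while other members are made in all cells at all times. HSP70 proteins (Hspa1a, Hspa1b and the constitutive Hspa8) work with an HSP40 partner (Dnajb1) and a nucleotide exchange factor of the HSP110 class (Hsph1). Hsp90aa1 encodes the inducible cytosolic HSP90, and Hspb1 encodes HSP27 (HSP25 in mice), a small heat shock protein that holds unfolded proteins and binds the actin skeleton.

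In RefSeq annotation of GRCm38.p6, the build named in the submitters' processing notes, Mt2 (chr8:94172618-94173567) and Mt1 (chr8:94178883-94180327) lie side by side on the plus strand. Hspa1b (chr17:34956429-34959238) and Hspa1a (chr17:34969359-34972156) also neighbour each other, on the minus strand. The others are Hspa8 (chr9:40801276-40805202), Hsph1 (chr5:149616843-149636498), Dnajb1 (chr8:83608175-83612653), Hsp90aa1 (chr12:110691036-110696395) and Hspb1 (chr5:135887919-135889563). RefSeq promoter windows, from 250 bases before to 50 after the transcription start, were matched for 7 of the 9 genes. Hspa8 and Hsp90aa1 had no window and were not searched. The stretches printed here are those with motifs that are known from the heat shock and the metal response. A core heat shock element was searched as GAANNTTC or TTCNNGAA on both strands, and 15.1% of all 32851 windows of 300 bases hold it, 12.8% before the start. Before the start it was found in Hspa1a, Hspa1b, Hsph1 and Hspb1 and not in the windows of Dnajb1, Mt1 or Mt2. The stretches of 150 bases that end at the base before the start are given 5′ to 3′ on the coding strand for Hspa1a (chr17:34972157-34972306, minus strand), Hspa1b (chr17:34959239-34959388, minus strand) and Hspb1 (chr5:135887769-135887918, plus strand), with 30 bases around the element, at -33 from a start of the table, for Hsph1 (chr5:149636347-149636376, minus strand). Capitals mark the heat shock element.
Hspa1a: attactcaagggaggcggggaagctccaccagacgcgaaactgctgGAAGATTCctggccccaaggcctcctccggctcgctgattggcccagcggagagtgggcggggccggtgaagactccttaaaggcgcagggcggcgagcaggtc
Hspa1b: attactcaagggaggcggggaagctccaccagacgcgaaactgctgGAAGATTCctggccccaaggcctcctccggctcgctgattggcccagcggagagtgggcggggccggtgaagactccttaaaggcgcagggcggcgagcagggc
Hspb1: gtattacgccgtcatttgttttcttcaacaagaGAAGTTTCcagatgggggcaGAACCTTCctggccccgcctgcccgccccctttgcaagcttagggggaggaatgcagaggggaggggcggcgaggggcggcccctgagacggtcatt
Hsph1: agaatctTTCTCGAAggctcgagaagaagg
The Hspa1a and Hspa1b stretches differed at 1 of 150 bases and carried the same GAAGATTC at -104 from the start. Hspb1 carried 2 elements, at -117 and -97.

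The core of the metal response element was searched as TGCACNC or TGCGCNC on both strands, and 25.7% of all windows hold it, 21.4% before the start. Before the start, Mt2 held 3 matches, at -223, -128 and -50, and Mt1 held 1 at -23 from a start of the table. Hspa1a, Hspa1b, Hsph1, Dnajb1 and Hspb1 held no match before the start. Capitals mark it in the 30 bases before a start of the table for Mt1 (chr8:94179059-94179088, plus strand), which lie inside the gene as annotated above, and in the 150 bases before the start of Mt2 (chr8:94172468-94172617, plus strand).
Mt1: cccgctgTGCACACtggcgctccagggagc
Mt2: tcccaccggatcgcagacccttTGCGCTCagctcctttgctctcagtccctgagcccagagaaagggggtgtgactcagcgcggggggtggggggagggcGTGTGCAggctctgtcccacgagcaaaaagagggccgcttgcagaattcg
A match is a description of letters, and binding was not measured.

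Reads of some members cannot be assigned with certainty. Of all windows of 125 bases, the shorter read length of the study, 43.8% of the longest Hspa1a transcript and 44.8% of the longest Hspa1b transcript were identical to a transcript of another gene, namely the respective partner or Hspa1l. The share was 58.5% for Hspa8, 41.3% for Hsp90aa1 and 38.6% for Hspb1, all matched by pseudogene transcripts such as Gm15459, Gm12346 and Hsp25-ps1. It was 0% for Mt1, Mt2, Hsph1 and Dnajb1. The split between Hspa1a and Hspa1b is therefore uncertain, and their sum is given beside them.

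The deletion was visible in every mouse, with Cfb at 1.13 to 2.22 FPKM in the 7 Cfb-/- mice and 56.7 to 131 FPKM in the 7 WT mice. The labelled tissue was checked by its markers. The summed level of 5 proximal tubule markers (Lrp2, Slc34a1, Slc5a2, Slc22a6 and Slc5a12) was 1886 to 2763 FPKM in the 6 control mice and 651 to 1237 FPKM in the 8 diabetic mice, with 4 of 5 markers called lower in WT diabetic and 5 of 5 in Cfb-/- diabetic mice. The part of this fall in the diabetes results on the members and on related genes was not tested. The sum of 3 skeletal muscle markers stayed between 0 and 1.22 FPKM. The summed FPKM of all genes was 330246 to 364953 in diabetic mice and 372884 to 488196 in control mice. Kap, a proximal tubule gene, alone took 10.2% to 13.9% of that sum in control mice, and the most abundant gene took 2.49% to 4.6% in diabetic mice. The median difference over all tested genes was 0.29 (log2) in the WT diabetes comparison and 0.22 in the Cfb-/- diabetes comparison, and differences of members are also given relative to it.

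Of the 4 groups, the Cfb-/- control mice did not behave as a uniform group for these genes. Cfb-/- control mice 2 and 3 stood apart from mouse 1 and from the WT control mice in the inducible chaperones. Hspa1b was at 7.12 FPKM in mouse 1, 161 FPKM in mouse 2 and 60.3 FPKM in mouse 3, against 4.55 to 7.69 FPKM in WT control mice. Of 10 immediate early genes, 10 were over 2-fold above the geometric mean of the WT control mice in mouse 2, 5 in mouse 3 (Fos, Fosb, Jun, Egr1 and Nr4a1) and 0 in mouse 1. Fos, for example, was at 0.66, 18 and 2.44 FPKM in mice 1, 2 and 3. In mouse 3 the level of Ier2 was 0.909 times, that of Junb 1.08 times, that of Zfp36 1.26 times and that of Atf3 1.38 times the WT control level. What lay behind this was not tested. Calls that rest on this group are therefore also given without mice 2 and 3, a choice made after the values were seen. WT control mouse 1 stood apart in Fkbp5 and Per1, 2 of 8 genes of the glucocorticoid-responsive list. Fkbp5 was at 37.5 FPKM against 15.0 and 18.8 FPKM, and Per1 at 5.11 FPKM against 1.69 and 1.79 FPKM, in WT control mice 2 and 3. The other genes of that list are not given by mouse here, so these 2 do not stand for the list. Without this mouse, 1724 of 14892 tested genes were called between control genotypes, against 1 of 14912 with all mice.

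**Figure D1:**
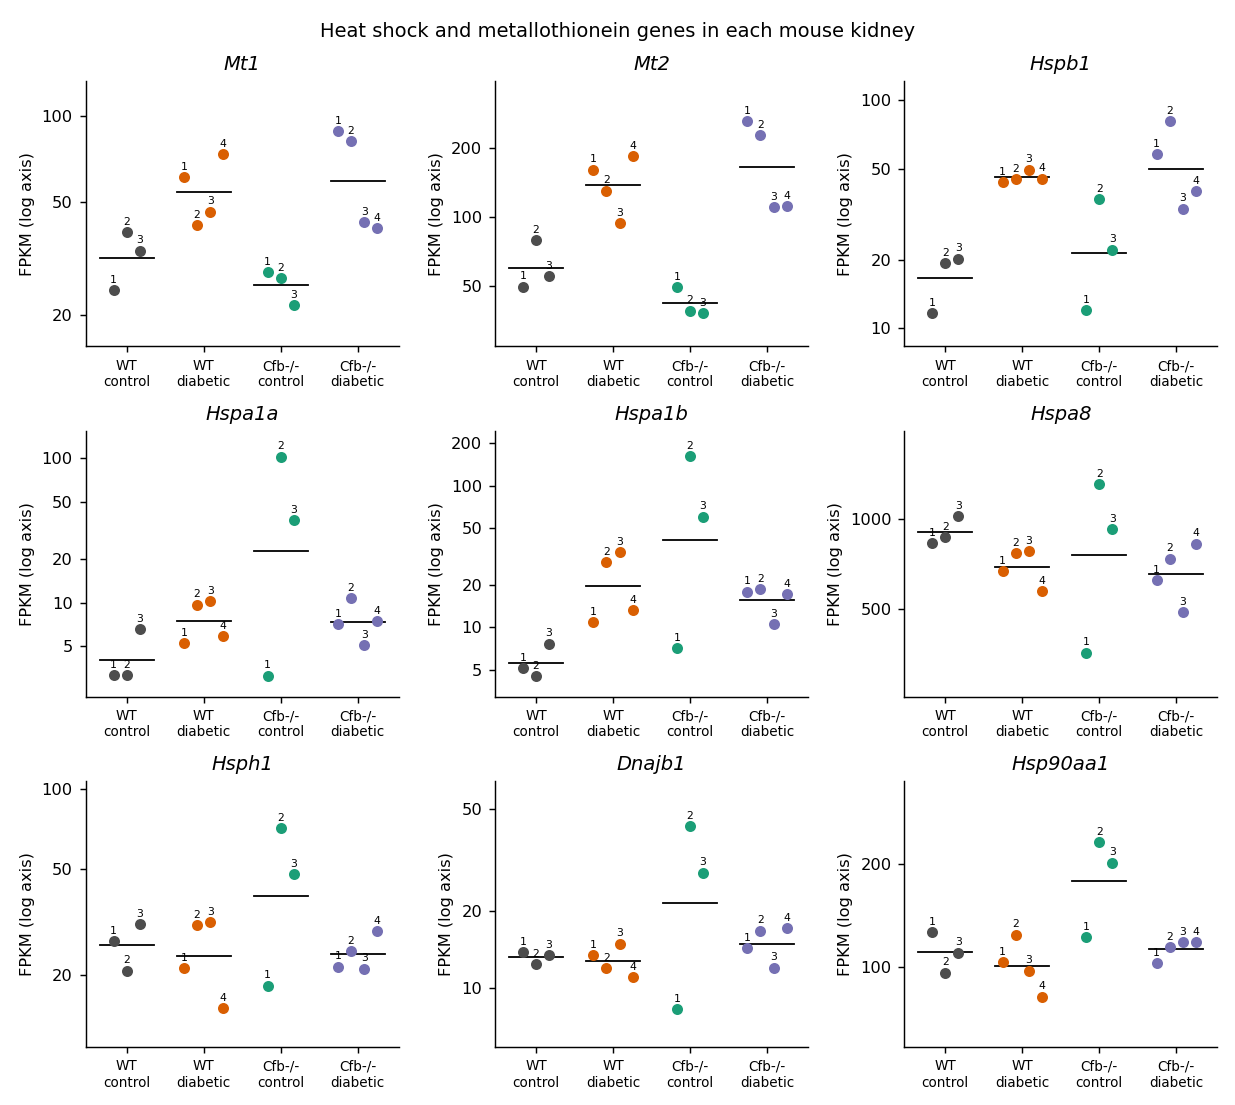
FPKM of each gene on a log axis in every mouse, with 1 panel per gene, points numbered by mouse and a line at the geometric mean of the group. Mt1 and Mt2 lie above all control mice in every diabetic mouse, and Cfb-/- control mice 2 and 3 lie far above the other mice in Hspa1a and Hspa1b.

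The first question was whether the 2 metallothionein genes differed in diabetic kidneys. In WT control mice Mt1 was measured at 24.5, 39.1 and 33.7 FPKM, and in WT diabetic mice at 61, 41.3, 46.2 and 73.5 FPKM. In Cfb-/- control mice it was measured at 28.3, 27 and 21.7 FPKM, and in Cfb-/- diabetic mice at 88.6, 81.7, 42.6 and 40.4 FPKM. In either genotype, every diabetic mouse lay above every control mouse of the same genotype, though WT diabetic mouse 2 exceeded WT control mouse 2 by little. Mt1 rose 1.70-fold in WT mice (95% interval 1.12 to 2.57, limma adjusted p = 0.0383) and 2.32-fold in Cfb-/- mice (1.53 to 3.52, adjusted p = 0.00407). Relative to the median of all genes these were differences of 0.48 and 0.99 on the log2 scale. The WT call was lost without WT diabetic mouse 1 (adjusted p = 0.0842) or 4 (0.1) and without WT control mouse 1 (0.137) or 3 (0.0663), in a range of 0.0208 to 0.172 over all alternatives. The Cfb-/- call held in 22 of 23 alternatives and was lost without Cfb-/- control mice 2 and 3. That fit leaves 1 control mouse, and its difference was 1.07 on the log2 scale, against 1.21 with all mice.

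Mt2 was the more abundant of the pair in every mouse. It was measured at 49.7, 79.0 and 55.3 FPKM in WT control mice and at 161, 130, 94.2 and 184 FPKM in WT diabetic mice. It was at 49.6, 39.1 and 38.2 FPKM in Cfb-/- control mice and at 261, 228, 110 and 112 FPKM in Cfb-/- diabetic mice. Groups did not overlap in either genotype, and the lowest diabetic mouse was at 94.2 FPKM. Mt2 rose 2.30-fold in WT mice (1.46 to 3.60, adjusted p = 0.00592) and 3.91-fold in Cfb-/- mice (2.49 to 6.14, adjusted p = 0.000222). The mean level was 61.3 ± 15.6 FPKM (SD, n = 3) in WT control and 142 ± 38.9 FPKM (SD, n = 4) in WT diabetic kidneys. For Cfb-/- kidneys it was 42.3 ± 6.33 FPKM (SD, n = 3) without and 178 ± 78 FPKM (SD, n = 4) with diabetes. In the order of these levels, the 2 diabetic groups did not differ beyond their spread. Neither did the 2 control groups in the fit (adjusted p = 0.394). All 3 Cfb-/- control mice lay below the WT control mice, the highest at 49.6 FPKM against 49.7 FPKM, as was the case for 7.12% of all tested genes, with 6.67% the other way. Without Cfb-/- control mice 2 and 3, which leaves 1 control mouse, Mt2 was still higher in Cfb-/- diabetic mice, by 1.73 on the log2 scale.

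Within diabetic groups, both genes split the mice alike. Cfb-/- diabetic mice 1 and 2 had more than mice 3 and 4, and WT diabetic mice 1 and 4 had the most Mt1 and the most Mt2 of their group. Marker sums of other cell types, among them macrophages and the distal tubule, split the diabetic mice in the same way. The summed level of 4 macrophage markers (Adgre1, Cd68, C1qa and Csf1r) was 114, 119, 71.9 and 79.9 FPKM in Cfb-/- diabetic mice 1 to 4 and 106, 78.2, 70.9 and 108 FPKM in WT diabetic mice 1 to 4, against 23.2 to 34.8 FPKM in all control mice. All 4 markers were called higher in WT diabetic mice and 3 of 4 in Cfb-/- diabetic mice, and none was at 0. The sum of 2 distal tubule markers (Slc12a3 and Calb1) was 589, 502, 399 and 296 FPKM in the Cfb-/- and 432, 233, 203 and 509.7 FPKM in the WT diabetic mice. The proximal tubule sum was lower in Cfb-/- diabetic mice 1 and 2 than in 3 and 4 (651, 763, 1237 and 1032 FPKM). It did not split the WT diabetic mice in this way, with 1149.5, 1061, 908 and 899.8 FPKM in mice 1 to 4. The part of any of these cell types in the metallothionein levels was not tested.

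The ratio of Mt2 to Mt1 also differed by group. Mt2 was 1.64 to 2.03 times Mt1 in WT control mice and 1.45 to 1.76 times Mt1 in Cfb-/- control mice. It was 2.04 to 3.15 times Mt1 in WT diabetic mice and 2.59 to 2.94 times in Cfb-/- diabetic mice. The mean log2 ratio of Mt1 to Mt2 was 0.75 lower in Cfb-/- diabetic than in Cfb-/- control mice, a difference of -0.75 (exact two-sided permutation p = 0.0286, the smallest that 4 mice against 3 can give). In WT mice the difference was -0.44 (exact two-sided permutation p = 0.0571). The genotypes did not pass the test in control mice (0.20, exact permutation p = 0.3, where 3 against 3 allow no p under 0.1) or in diabetic mice (-0.12, exact permutation p = 0.486). Being a ratio within a mouse, it does not depend on scaling, apart from the pseudocount.

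**Figure D2:**
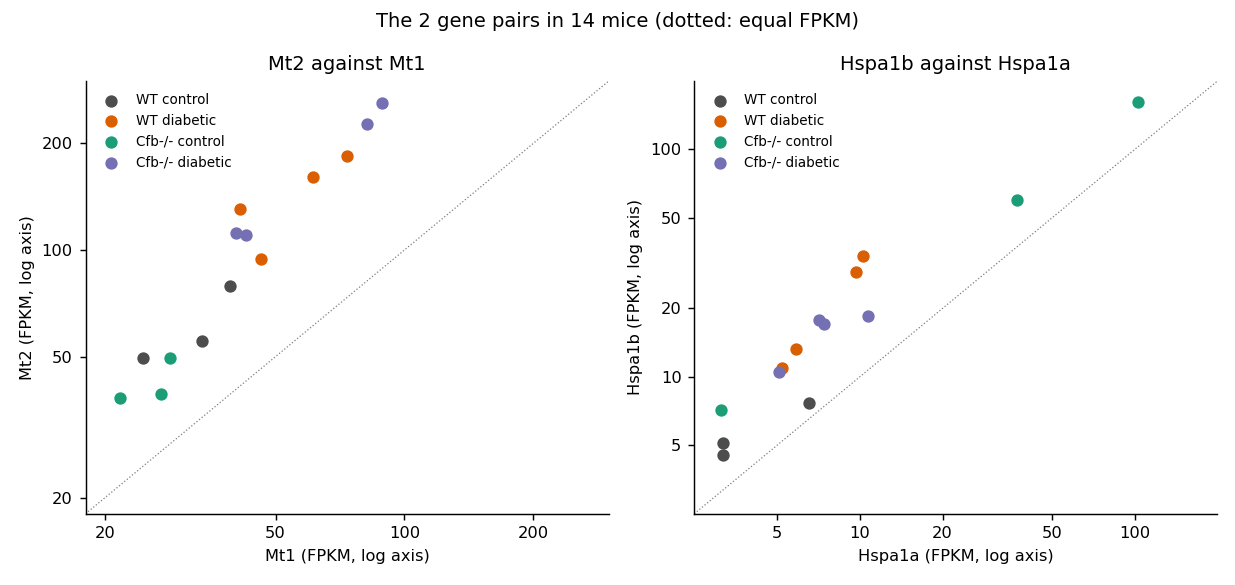
Mt2 against Mt1 and Hspa1b against Hspa1a in 14 mice, FPKM on log axes, colored by group, with a dotted line at equal levels. All points lie above the line, the metallothioneins separate diabetic from control mice, and Cfb-/- control mice 2 and 3 lie at the far upper right of the Hspa1 panel.

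Hspb1, the small heat shock protein gene, was the other member that was higher in diabetic mice of both genotypes. It was at 11.7, 19.4 and 20.3 FPKM in WT control mice and at 44.0, 45.3, 49.7 and 45.4 FPKM in WT diabetic mice. The WT diabetic mice differed little among themselves and all lay above the WT control mice. Cfb-/- control mice had 12.0, 36.9 and 22.2 FPKM and Cfb-/- diabetic mice 58.2, 81.2, 33.5 and 40.1 FPKM, so that Cfb-/- control mouse 2 lay above Cfb-/- diabetic mouse 3. Hspb1 rose 2.76-fold in WT mice (1.68 to 4.54, adjusted p = 0.0032) and 2.34-fold in Cfb-/- mice (1.42 to 3.84, adjusted p = 0.0116). Without Cfb-/- control mice 2 and 3, which leaves 1 control mouse, the latter difference was 2.05 on the log2 scale. Without Cfb-/- control mouse 1 it was 0.81 and no longer called (adjusted p = 0.0717), in a range of 0.00289 to 0.0717 over all alternatives.

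The inducible HSP70 genes showed another pattern. Hspa1a was at 3.17, 3.17 and 6.54 FPKM in WT control mice, at 5.23, 9.70, 10.3 and 5.84 FPKM in WT diabetic mice, and at 7.12, 10.7, 5.09 and 7.44 FPKM in Cfb-/- diabetic mice. In Cfb-/- control mice it was at 3.13, 103 and 37.3 FPKM. Hspa1b was at 5.13, 4.55 and 7.69 FPKM in WT control, 11, 28.8, 33.9 and 13.3 FPKM in WT diabetic, and 17.9, 18.5, 10.6 and 17.1 FPKM in Cfb-/- diabetic mice. Outside the 2 Cfb-/- control mice that stood apart, no mouse had over 33.9 FPKM of Hspa1b. Hspa1b was 3.40 times as high in WT diabetic as in WT control mice (1.14 to 10.1), the groups did not overlap, and the difference missed the threshold (adjusted p = 0.0619). It was called when only these 2 groups were fitted (adjusted p = 0.00555). With all groups fitted, it was called without Cfb-/- control mouse 1 (adjusted p = 0.00402) or without mouse 2 (0.0231). The difference was 1.77 on the log2 scale in each of these fits and without mice 2 and 3. These fits differ in the mice behind the estimate of spread, which all fitted groups share. Over all alternatives the adjusted p reached 0.176. Hspa1a differed by 0.86 on the log2 scale in WT mice (adjusted p = 0.382) and was called only without Cfb-/- control mice 2 and 3 (adjusted p = 0.0441, in a range of 0.0441 to 0.644). WT diabetic mice 2 and 3, with the most Hspa1b, also had the most of 5 urothelium markers (Upk1a, Upk1b, Upk2, Upk3a and Krt5). Their sums were 0.69, 34.2, 45.7 and 14.7 FPKM in WT diabetic mice 1 to 4 and 0.28 to 0.61 FPKM in WT control mice, and all 5 were called higher in WT diabetic mice. The same 2 mice had the highest sums of 3 inner medulla markers (Slc14a2, Aqp4 and Fxyd4), at 4.03, 45.5, 27.2 and 8.97 FPKM in WT diabetic mice 1 to 4, and of 3 principal cell markers (Aqp2, Scnn1b and Avpr2), at 158, 504, 319 and 231 FPKM. In Cfb-/- control mice 1 to 3 the urothelium sum was 8.72, 0.61 and 8.77 FPKM, and Hspa1b was at 7.12, 161 and 60.3 FPKM. The part of these cell types in the Hspa1b values of any group was not tested.

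Summed over Hspa1a and Hspa1b, the WT level was 10.1 ± 3.60 FPKM (SD, n = 3) without and 29.5 ± 13.9 FPKM (SD, n = 4) with diabetes. With diabetes the Cfb-/- level was 23.6 ± 5.72 FPKM (SD, n = 4). Cfb-/- control mice had 124 ± 129 FPKM (SD, n = 3), with a range of 10.3 to 264 FPKM. On the log2 scale the sum differed by 1.46 between WT diabetic and WT control mice (exact two-sided permutation p = 0.0571, where 4 against 3 allow 0.0286). It differed by 2.72 between Cfb-/- control and WT control mice (exact permutation p = 0.2) and by -0.23 between the diabetic groups (exact permutation p = 0.543). Between Cfb-/- diabetic and Cfb-/- control mice the difference was -1.48 (exact permutation p = 0.314), and it was 1.16 in the opposite direction against Cfb-/- control mouse 1 alone. Hspa1b made up 54.0% to 61.8% of the sum in WT control and 67.7% to 76.7% in WT diabetic mice, while the Cfb-/- groups overlapped, with 61% to 69.4% in control and 63.3% to 71.5% in diabetic mice.

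Hspa8, the constitutive HSP70 of all cells, at 359 to 1303 FPKM, was the most abundant of the 9 genes in every mouse. It was at 829.1, 867 and 1019 FPKM in WT control mice and at 668, 767, 780 and 576 FPKM in WT diabetic mice, and these groups did not overlap. The difference of -0.38 on the log2 scale did not pass the test (adjusted p = 0.346). Cfb-/- control mice had 359, 1303 and 926 FPKM and Cfb-/- diabetic mice 624, 738, 491 and 826 FPKM, so that Cfb-/- control mouse 1 held the lowest and mouse 2 the highest value of all 14 mice.

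Hsp90aa1, the inducible HSP90, was the 1 member called lower in a comparison of all mice. Cfb-/- control mice had 122, 232 and 202 FPKM and Cfb-/- diabetic mice 103, 115, 118 and 118 FPKM, which did not overlap. It fell to 0.634 of the control level (0.479 to 0.838, adjusted p = 0.0146), a difference of -0.66 on the log2 scale. The call was lost without Cfb-/- control mouse 2 (-0.47, adjusted p = 0.0924), without mouse 3 (-0.57, adjusted p = 0.0611) and without both (-0.11, adjusted p = 0.768), in a range of 0.000855 to 0.768 over all alternatives. In WT mice it was at 127, 96.3 and 110 FPKM in controls and 103, 124, 97.7 and 82.1 FPKM in diabetes, and the groups overlapped.

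Hsph1, the HSP110 exchange factor, was at 26.8, 20.8 and 31.1 FPKM in WT control, 21.2, 30.8, 31.6 and 15.1 FPKM in WT diabetic, 18.3, 71.1 and 47.8 FPKM in Cfb-/- control and 21.5, 24.5, 21.2 and 29.2 FPKM in Cfb-/- diabetic mice. Dnajb1, the HSP40 partner of HSP70, was at 13.8, 12.4 and 13.4 FPKM in WT control, 13.4, 12.0, 14.9 and 11 FPKM in WT diabetic, 8.24, 42.8 and 28.2 FPKM in Cfb-/- control and 14.3, 16.8, 12.0 and 17.1 FPKM in Cfb-/- diabetic mice. For both, Cfb-/- control mice 2 and 3 held the 2 highest values. The other 3 groups overlapped, and Dnajb1 was lowest of all 14 mice in Cfb-/- control mouse 1. Neither passed the test in a diabetes comparison, with log2 differences of -0.13 and -0.05 in WT mice and of -0.73 (adjusted p = 0.138) and -0.53 (adjusted p = 0.297) in Cfb-/- mice. Without Cfb-/- control mice 2 and 3, Dnajb1 was instead 0.85 higher in Cfb-/- diabetic mice (adjusted p = 0.0156, with the lone control mouse assumed to vary like the other groups) and Hspa8 0.87 higher (adjusted p = 0.0467). Over all alternatives these p ranged from 0.000429 to 0.951 for Dnajb1 and from 0.0227 to 0.995 for Hspa8.

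Counted together, 3 of the 9 members (33.3%) were called higher and 0 lower in WT diabetic against WT control mice, where 46.1% of all tested genes were called, 36.2% higher and 9.97% lower. In Cfb-/- diabetic against Cfb-/- control mice, where 33.8% of all genes were called, 3 members (33.3%) were called higher, against 27.4% of all genes, and 1 (11.1%) lower, against 6.4% of all genes. The shares of members called higher lie near the background and are not a result about the members, and the share called lower is a single gene. Without Cfb-/- control mouse 1, the Cfb-/- comparison gave 2 members higher and 6 lower, where 23.1% of all genes were called higher and 4.77% lower, the 6 being all of Hspa1a, Hspa1b, Hspa8, Hsph1, Dnajb1 and Hsp90aa1. Without mice 2 and 3 it gave 4 higher (Mt2, Hspb1, Hspa8 and Dnajb1) and 0 lower, where 12.7% and 2.72% of all genes were called. The split of calls depends on the scaling, since 78.4% of all genes called in WT mice and 81.0% of those called in Cfb-/- mice were higher as deposited, and 50.2% and 56.7% after median-ratio scaling. Under that scaling Mt2 and Hspb1 stayed called higher in both comparisons, and Mt1 in Cfb-/- mice but not in WT mice (0.48, adjusted p = 0.172, in a range of 0.0208 to 0.172 over all alternatives). Groups did not overlap for 4 members higher (44.4%, against 35.5% of all genes) and 1 lower (11.1%, against 9.84%) in WT mice. In Cfb-/- mice they did not overlap for 2 members higher (22.2%, against 33.6%) and 1 lower (11.1%, against 8.64%).

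**Figure D3:**
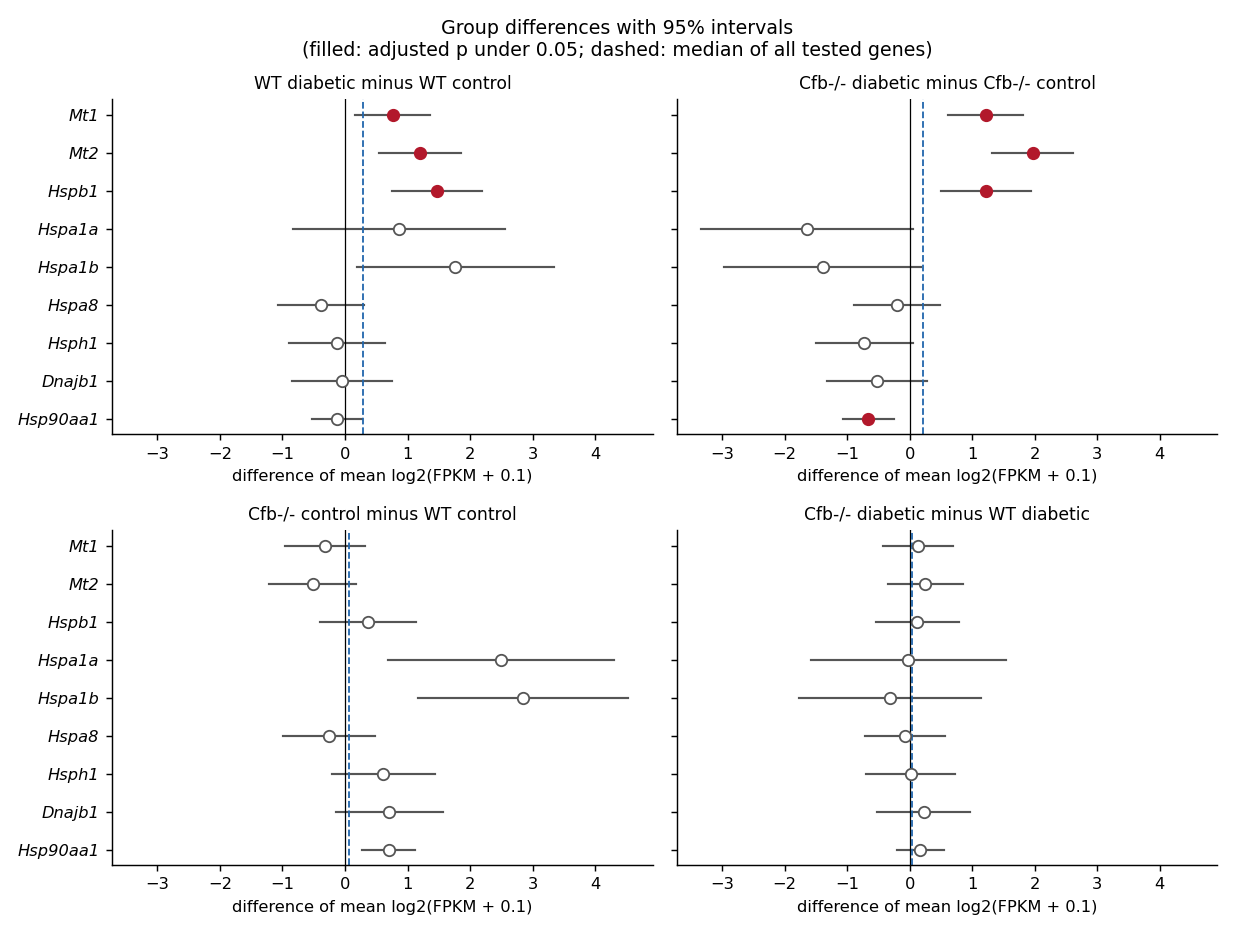
Difference of mean log2(FPKM + 0.1) of the 9 genes in 4 comparisons, with 95% intervals from limma, filled points where the adjusted p is under 0.05 and a dashed line at the median of all tested genes. Mt1, Mt2 and Hspb1 are filled to the right of 0 in both diabetes comparisons, Hsp90aa1 is filled to the left in Cfb-/- mice, and no point is filled in the genotype comparisons.

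Between genotypes, none of the 9 members was called. Between Cfb-/- control and WT control mice 0.00671% of all tested genes were called at all, namely Cfb alone. There, 3 members had an unadjusted p under 0.05 in limma, as did 2614 of all 14912 genes (17.5%). These were Hspa1a (2.49 on the log2 scale, SE 0.84, adjusted p = 0.247), Hspa1b (2.85, SE 0.79, adjusted p = 0.239) and Hsp90aa1 (0.70, SE 0.20, adjusted p = 0.243). Against WT control mice, Hspa1a differed by -0.36 and Hspa1b by 0.33 when Cfb-/- control mouse 1 was used alone. Without mouse 1 instead, the differences were 3.91 and 4.10. Both genes and Dnajb1 were then called (adjusted p = 0.00355, 0.00398 and 0.0172), where 10 of all 14883 tested genes were called. The result thus turns on which of the 3 mice are used. Over all alternatives the adjusted p ranged from 0.00355 to 0.789 for Hspa1a, 0.00398 to 0.826 for Hspa1b and 0.0172 to 0.776 for Dnajb1. Hsp90aa1 was called without WT control mouse 1 (0.79, adjusted p = 0.0397, in a range of 0.0397 to 0.796), a setting in which 1724 of all genes were called.

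Between Cfb-/- diabetic and WT diabetic mice 0.00671% of all tested genes were called, again Cfb alone. In limma, 0 of the 9 members had an unadjusted p under 0.05, as did 448 (3%) of all genes. Groups overlapped for all 9 members, while 1.86% of all genes lay fully higher and 0.885% fully lower. The fold was 1.10 for Mt1 (95% interval 0.747 to 1.61), 1.19 for Mt2 (0.784 to 1.81) and 1.09 for Hspb1 (0.687 to 1.73). It was 0.807 for Hspa1b (0.294 to 2.21) and 1.12 for Hsp90aa1 (0.868 to 1.46). All these intervals include equal levels. The interaction of genotype and diabetes was called for 0% of all tested genes, and 2 members had an unadjusted p under 0.05 against 5.77% of all genes, Hspa1b (-3.16, SE 1.04, adjusted p = 0.779) and Hspa1a (-2.50, SE 1.12, adjusted p = 0.779). Without Cfb-/- control mouse 1 both were called (adjusted p = 0.0319 and 0.034, in ranges of 0.0319 to 0.987 and 0.034 to 0.987). In that setting 4 of all 14883 tested genes were called. Without mice 2 and 3 the difference of Hspa1a was 0.34.

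The 3 Cfb-/- control mice were then described singly, as values with no test. In mouse 2, 4 members were over 2-fold above the highest WT control mouse, Hspa1a, Hspa1b, Hsph1 and Dnajb1, where 0.355% of all tested genes were. Mouse 3 had 3 such members (Hspa1a, Hspa1b and Dnajb1) against 1.64% of all genes, and mouse 1 had 0 against 0.731%. In mouse 2, Hspa1a was 24.9 times and Hspa1b 28.1 times the geometric mean of the WT control mice. Of 67 further chaperone genes from a list of relatives and partners, 2 were over 2-fold above in mouse 2, Dnaja1 (158 FPKM) and Hspa1l (0.376 FPKM), and 1 in mouse 3, Hspa1l. Dnaja1 encodes another HSP40 partner, and Hspa1l shares sequence with Hspa1a and Hspa1b. The co-chaperone genes Bag3 and Chordc1 stood at 26.8 and 43.3 FPKM in mouse 2, against 12.8 and 22.6 FPKM on average in WT control mice. Metallothioneins did not share the pattern, Mt2 being at 39.1 and 38.2 FPKM in mice 2 and 3, below all WT control mice.

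**Figure D4:**
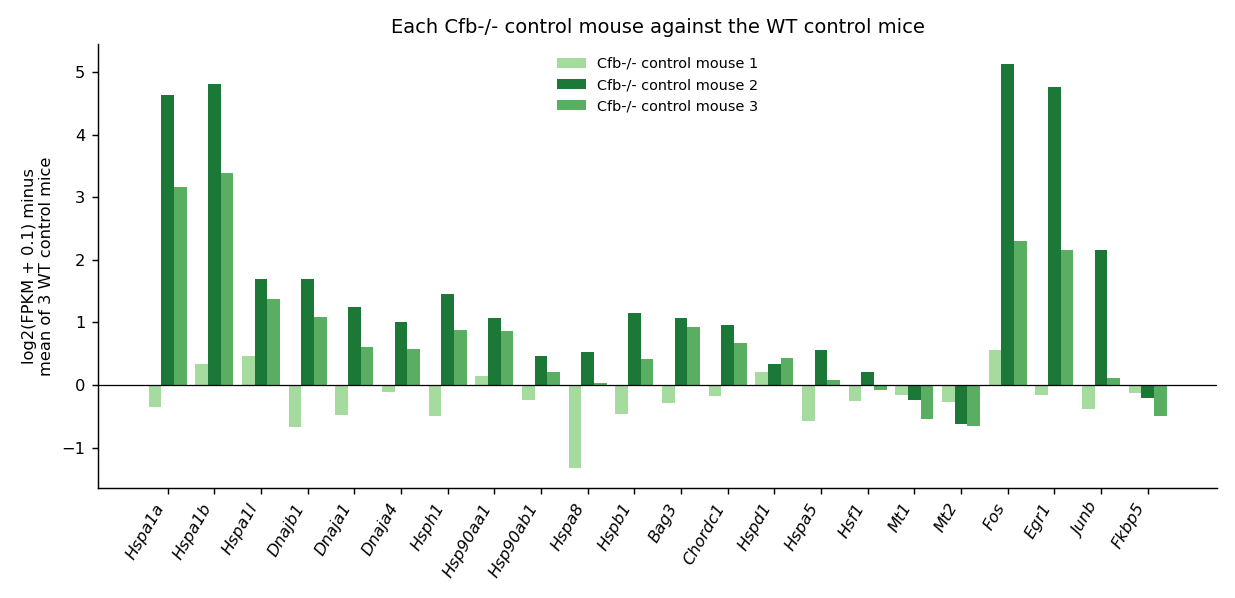
Log2(FPKM + 0.1) of chaperone, metallothionein and other stress genes in each Cfb-/- control mouse minus the mean of the 3 WT control mice. Mice 2 and 3 stand above 0 for Hspa1a, Hspa1b, Dnajb1, Hsph1, Fos and Egr1 and below 0 for Mt1 and Mt2, while mouse 1 stays near or below 0 for most genes.

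How the members varied together within groups was measured by correlating deviations from the group means over the 14 mice, for all 36 pairs, with exact permutation within groups and p adjusted over the 36. Mt1 and Mt2 deviated together (Pearson r = 0.92, exact p = 0.00405, adjusted exact p = 0.0162, Spearman rho = 0.91, adjusted exact p = 0.0249), and leaving out Cfb-/- diabetic mice 3 and 4, those with the most extreme deviations of Mt1, gave r = 0.81. Hspa1a and Hspa1b did so as well (r = 0.98, exact p = 0.000145, adjusted exact p = 0.00434, rho = 0.93, adjusted exact p = 0.00694), with r = 0.89 without the 2 farthest mice. This pair shares the transcript sequence given above. The 15 pairs among Hspa1a, Hspa1b, Hspa8, Hsph1, Dnajb1 and Hsp90aa1 had r of 0.78 to 0.98, and 11 passed the test by r and 8 by rho. Without the 2 farthest mice, Cfb-/- control mice 1 and 2, these 15 ranged from 0.21 to 0.89. For Dnajb1 with Hsp90aa1, r was 0.79 (adjusted exact p = 0.0923), and it was 0.22 without those mice, on which it rests.

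Of the 14 pairs of a metallothionein with a heat shock member, r ranged from -0.50 to 0.49. Mt1 with Hsp90aa1 passed by r and by rho (r = -0.50, adjusted exact p = 0.0314, rho = -0.61, adjusted exact p = 0.0249) and had r = -0.62 without the 2 farthest mice, Cfb-/- diabetic mice 3 and 4. Mt2 passed by r with Hsph1 (r = -0.49, adjusted exact p = 0.0314) and Hsp90aa1 (r = -0.46, adjusted exact p = 0.0458) but not by rho (adjusted exact p = 0.132 and 0.0825). Hspb1 did not pass with either metallothionein (r = 0.49 and 0.34) and passed with Hspa1a (r = 0.80, adjusted exact p = 0.0174) and Hspa1b (r = 0.74, adjusted exact p = 0.0314). Those r were 0.63 and 0.40 without Cfb-/- control mice 1 and 2.

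The genes most like the members over the 14 mice were taken from 11372 expressed genes by Pearson r, as a description that includes the group differences. Nearest to the mean of Mt1 and Mt2 were Evl (r = 0.989), Arl6ip5 (0.979), Maged2 (0.978), Plscr3 (0.978) and Lsp1 (0.971). Evl encodes a regulator of actin filaments and Lsp1 a leukocyte protein that binds actin. The WT means of Evl were 1.79 ± 0.256 FPKM (SD, n = 3) without and 3.78 ± 1.04 FPKM (SD, n = 4) with diabetes, and the Cfb-/- means 1.45 ± 0.177 FPKM (SD, n = 3) and 4.09 ± 1.46 FPKM (SD, n = 4). Nearest to the mean of Hspa1a, Hspa1b, Hsph1 and Dnajb1 were Cacybp (0.903), Chordc1 (0.899), Dnaja4 (0.886), Bag3 (0.855) and Ndufaf4 (0.844). Chordc1 binds HSP90, Dnaja4 is an HSP40 protein and Bag3 is an exchange factor of HSP70, while Ndufaf4 serves the assembly of mitochondrial complex I. Cacybp was highest in Cfb-/- control mice 2 and 3, at 39.0 and 30.8 FPKM against 19.9 to 27 FPKM in the other 12 mice.

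The wider chaperone network, 68 genes of which 67 were tested, was compared with all tested genes by its calls and its median difference, as a description. In WT diabetic mice 15 of 67 (22.4%) were called higher and 5 (7.46%) lower, with a median difference of 0.07 against 0.29 for all tested genes. In Cfb-/- diabetic mice 6 (8.96%) were called higher and 4 (5.97%) lower, with a median of -0.01 against 0.22. The direction depends on scaling, since median-ratio scaling gave 5 higher and 24 lower in WT mice and 2 higher and 17 lower in Cfb-/- mice, and quantile normalization 9 and 4, and 2 and 12. With median-ratio scaling the median of the list was -0.21 and -0.25, while that of all genes is then 0.03 and -0.01. With quantile normalization the order turned in WT mice, the list being at 0.020 against -0.051 for all genes, and in Cfb-/- mice it was at -0.078 against -0.054.

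The network was then taken class by class, to be read against the 36.2% of all genes called higher and 9.97% called lower in WT diabetic mice and the 27.4% and 6.4% in Cfb-/- diabetic mice. Of the 6 tested small heat shock genes beside Hspb1, 4 were called higher in WT diabetic mice. The largest rise was that of Hspb8, a partner of Bag3, from 3.47 to 13.2 FPKM (1.91, SE 0.17, adjusted p = 3.9e-06), which also rose in Cfb-/- mice from 4.5 to 15.8 FPKM (1.79, SE 0.17, adjusted p = 6.47e-06). Cryab, alpha-crystallin B, rose from 41.4 to 127 FPKM in WT mice (1.74, SE 0.37, adjusted p = 0.0018). In Cfb-/- mice Cryab was not called in limma (0.43, adjusted p = 0.387), and Hspb8 was the 1 call among the 6 genes. Hspb2 (1.18, adjusted p = 0.0211) and Cryaa (0.93, adjusted p = 0.0344) were also called in WT mice, and both calls were lost with either scaling. Hspb8 was called under every scaling in both genotypes, and Cryab in WT mice. Of 8 HSP70 and HSP110 paralogs, 7 were called higher in WT mice, led by Hspa1l at 0.15 against 0.0479 FPKM (0.74) and Hspa2 at 2.62 against 1.55 FPKM (0.71), and all 7 calls were lost with median-ratio scaling, while quantile normalization gave 1 call and turned Hspa12b to -0.13. In Cfb-/- mice 1 of the 8 was called, Hspa12b (0.80, adjusted p = 0.00428).

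The mitochondrial chaperonin pair was lower in both genotypes. Hspe1, the HSP10 lid, fell from 346 to 215 FPKM in WT mice (-0.67, adjusted p = 0.00222) and from 333 to 201 FPKM in Cfb-/- mice (-0.70, adjusted p = 0.00197). Hspd1, the HSP60 barrel, was lower by -0.40 in WT mice (adjusted p = 0.044) and by -0.73 in Cfb-/- mice (adjusted p = 0.00206), the former lost with quantile normalization. These were 2 of 7 tested mitochondrial chaperones in either genotype, with 0 higher. Proximal tubule markers were lower in the same mice, and their part was not tested. Of 9 HSP90 genes and co-chaperones, 2 were lower in WT mice, Fkbp4, a steroid receptor partner (-0.64, adjusted p = 0.00114), and Hsp90ab1, the constitutive HSP90 (-0.36, adjusted p = 0.0497). In Cfb-/- mice Fkbp4 was lower (-0.53, adjusted p = 0.00478) and Sugt1 higher (0.35, adjusted p = 0.012). Among 8 HSP40 genes, 1 was called higher in WT mice, Dnajb4 (1.12, adjusted p = 0.00383), and 1 in Cfb-/- mice, Dnajc7 (0.27, adjusted p = 0.0222).

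Of 8 exchange factors and partners of HSP70, Bag4 (0.95, adjusted p = 0.000697) and Bag2 (0.89, adjusted p = 0.000433) were higher and Stub1, a ubiquitin ligase (-0.37, adjusted p = 0.0359), lower in WT mice. Bag2 was the 1 call in Cfb-/- mice (0.61, adjusted p = 0.00721). Of 9 ER chaperones 1 was called in WT mice, Dnajb9 (0.89, adjusted p = 0.00861), and 0 in Cfb-/- mice. Of the 8 genes of the CCT chaperonin, which folds actin and tubulin, 0 were called in WT mice and 1 in Cfb-/- mice, Tcp1 (-0.21, adjusted p = 0.0471). Heat shock factor genes numbered 4, with 0 calls in WT mice and 1 in Cfb-/- mice, Hsf4 (1.03, adjusted p = 0.0267). Hsf1 itself was at 6.13 to 10.1 FPKM over all 14 mice. For the CCT genes median-ratio scaling gave 8 of 8 lower in WT mice and 5 of 8 in Cfb-/- mice.

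**Figure D5:**
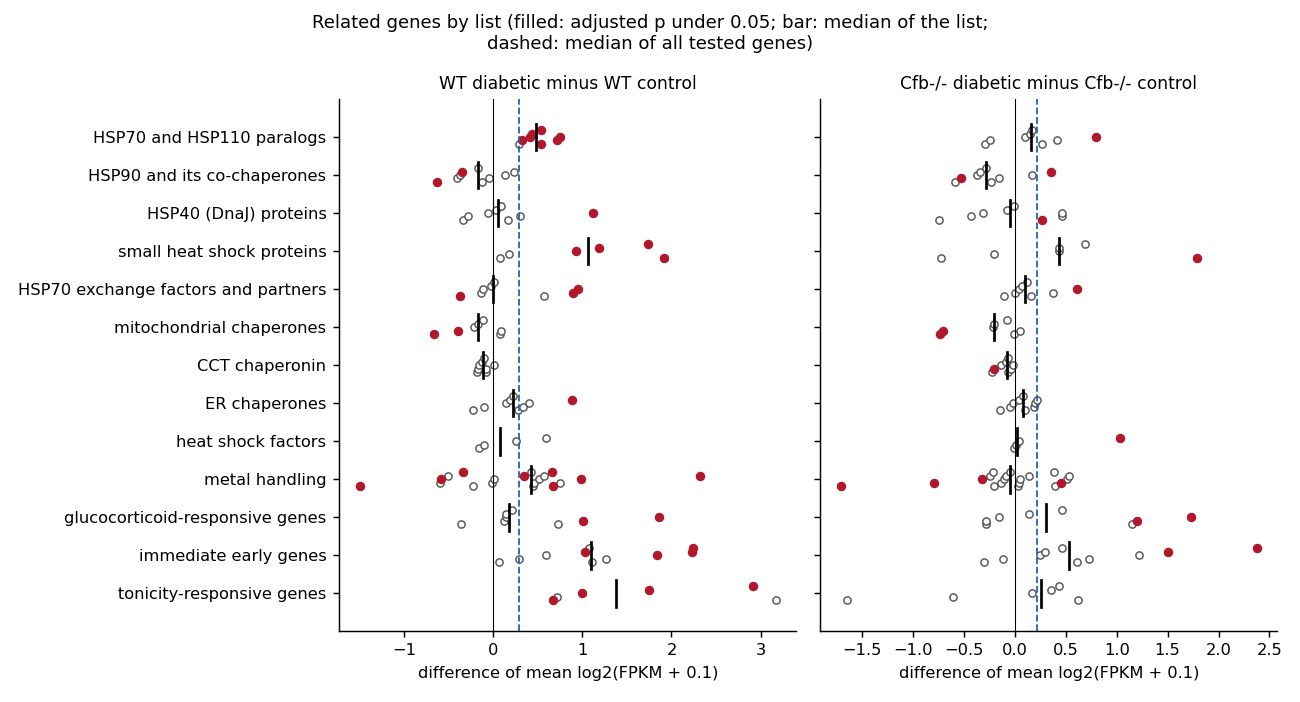
Difference of mean log2(FPKM + 0.1) of each tested gene in 13 lists of related genes, in WT mice (left) and Cfb-/- mice (right), filled where the adjusted p is under 0.05, with a bar at the median of the list and a dashed line at that of all tested genes. Hspb8 and the immediate early gene Atf3 lie far to the right in both panels, and the mitochondrial list has its filled points to the left of 0.

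Genes of metal handling, tonicity and glucocorticoids were compared as partners of the metallothioneins. Of 19 tested metal genes, 5 were called higher and 3 lower in WT mice and 1 higher and 3 lower in Cfb-/- mice, where 36.2% and 27.4% of all genes were called higher and 9.97% and 6.4% lower. Slc30a2, which moves zinc into vesicles, fell the most in both, from 22.2 to 7.81 FPKM in WT mice (-1.50, adjusted p = 0.000295) and from 20.8 to 6.50 FPKM in Cfb-/- mice (-1.71, adjusted p = 0.000128). The proximal tubule marker sum was also lower in all 8 diabetic mice, and its part was not tested. Slc30a5, a zinc transporter of the secretory pathway, was lower in both as well (-0.34 and -0.32), with Ccs, the copper chaperone of superoxide dismutase, lower in WT mice (-0.58) and the zinc importer gene Slc39a5 in Cfb-/- mice (-0.80). The largest rise in WT mice was that of Slc39a4, the gut zinc importer, at 0.550 against 0.0196 FPKM (2.32, adjusted p = 0.000274), a low level. The copper pump gene Atp7a (0.99), the zinc transporter genes Slc30a7 (0.66) and Slc39a1 (0.35) and Slc40a1, the iron exporter (0.66), were the other calls there. In Cfb-/- mice the call was Slc39a1 (0.45, adjusted p = 0.00175), which was not called with median-ratio scaling in either genotype. Mtf1, the gene of the metal-sensing factor, was at 1.25 to 3.19 FPKM and Mt3 at 0.95 to 2.64 FPKM over all 14 mice. Slc30a1, a zinc exporter known as a target of MTF1, was at 13.4 to 19.3 FPKM in WT control mice and 13.1 to 17.6 FPKM in WT diabetic mice.

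Of 8 glucocorticoid-responsive genes, 2 were called higher in either genotype. Sgk1, a kinase of sodium transport, rose from 21.8 to 77.0 FPKM in WT mice (1.86, adjusted p = 0.000106) and from 13.8 to 46.3 FPKM in Cfb-/- mice (1.73, adjusted p = 0.0002). Per1, a clock gene, was also higher in both (1.01, adjusted p = 0.0121, and 1.2, adjusted p = 0.00532). WT control mouse 1, which stood apart in Fkbp5 and Per1, had the least Mt1 of the WT control mice. A link between these levels was not tested. Against the same 36.2% of all genes, 4 of 10 immediate early genes were called higher in WT mice, Fos (2.24, adjusted p = 0.0263), Atf3 (2.24, adjusted p = 0.0011), Btg2 (1.84) and Jun (1.03), and 2 in Cfb-/- mice (27.4% of all genes), Atf3 (2.37, adjusted p = 0.000854) and Btg2 (1.51). The calls of Fos and Jun were lost with quantile normalization. Of 6 tonicity-responsive genes, 4 were higher in WT mice (36.2% of all genes), Slc6a12, a betaine transporter (2.92, adjusted p = 0.0339, lost with quantile normalization), Slc5a3 (1.75), Nfat5, the factor of the tonicity response (0.99), and Slc6a6 (0.67, lost with median-ratio scaling), and 0 in Cfb-/- mice, where 0 also had an unadjusted p under 0.05 in limma. Within WT diabetic mice 1 to 4 Slc6a12 was at 0.12, 3.11, 4.6 and 0.634 FPKM, and Akr1b3, the aldose reductase gene, at 23.1, 122, 71.4 and 27.9 FPKM, both highest in mice 2 and 3, which also had the highest inner medulla sums (4.03, 45.5, 27.2 and 8.97 FPKM). The part of inner medulla in these values was not tested.

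For these classes, the Cfb-/- diabetes comparison was also fitted without Cfb-/- control mice 2 and 3. As 1 control mouse then remains, a call can be lost through the smaller number of mice alone. Of the 110 tested genes in the lists beside the members, 18 were called there with all mice. Without mice 2 and 3, 5 of the 18 were called in the same direction, 13 were not called (adjusted p of 0.051 to 0.507) and 10 others were. The 5 were Hspb8 (2.06, adjusted p = 0.000508), Slc30a2 (-1.88, adjusted p = 0.00442), Sgk1 (1.94, adjusted p = 0.00764), Atf3 (3.69, adjusted p = 0.000319) and Btg2 (2.15, adjusted p = 0.000891). Calls were lost for Hspe1 (-0.48), Hspd1 (-0.61), Fkbp4 (-0.27), Hspa12b (0.63), Tcp1 (-0.15), Slc39a1 (0.37) and Slc39a5 (-0.43), whose differences shrank in size. Calls were also lost for Sugt1 (0.44), Bag2 (0.73), Dnajc7 (0.28), Hsf4 (1.45), Slc30a5 (-0.41) and Per1 (1.4), whose differences grew in size. None of the lost calls changed sign. The 10 others, all higher, were Dnajb4, Bag3, the ER chaperone genes Hspa5 and Hyou1, and the immediate early genes Egr1, Fos, Fosb, Jun, Junb and Nr4a1. Bag3 turned from -0.0043 to 0.85 and Egr1 from -0.31 to 2.11. In the wider chaperone list 5 genes were then called higher and 0 lower, with a median of 0.16 against 0.20 for all tested genes. Then 1 control mouse remained in this fit and is assumed to vary like the other groups.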

How the data were processed

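Polyadenylated RNA of 14 mouse kidneys had been sequenced on an Illumina HiSeq from stranded TruSeq libraries, after a check of RNA integrity. The deposited values are 1 table per mouse with 21878 genes, read here as FPKM made by the authors. The submitters' processing notes name Trimmomatic, HISAT2, Cufflinks, HTSeq, DESeq and the build GRCm38.p6, without versions. No counts were used, and low values gave no clear steps of whole reads, so the depth is unknown and no counting interval can be given.

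Groups were taken from the sample titles. Genes with at least 0.1 FPKM in at least 3 mice were tested on log2(FPKM + 0.1) with limma 3.58.1 (R 4.3.3), with a trend, 1 mean per group over all 14 mice and Benjamini-Hochberg adjustment over all tested genes, called under 0.05. Fold changes are on this scale and understate changes of low genes. Contrasts were made for diabetes in each genotype, genotype in each diabetes state and their interaction. Sums, ratios and correlations were tested by exact two-sided permutation in Python 3.11.15. The script was tested on simulated data.

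All 9 members are described. From the lists of related genes, those with the largest rise and fall among the calls were named, and any where a count was 5 or fewer. The genes most like the members were the 5 with the highest Pearson r. The members, lists and markers were chosen with earlier results of these data known. Promoter windows and gene positions are from RefSeq on GRCm38.p6. Alternatives were other pseudocounts, filters and scalings, a fit of the compared groups alone, a replicate block and leaving out each mouse. Some marker sums are not reported here.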

Additional observations from a re-analysis of the deposited data

Results flagged for a closer look

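The spread of each member was examined in the diabetic groups, in which 4 mice allow a test of a single outlying mouse. The sums of Hspa1a with Hspa1b and of Mt1 with Mt2, which share values with their members, were examined as well. Of 22 sets of 4 mice tested, 1 stood out. Hspa1b in Cfb-/- diabetic mice was at 10.6 FPKM in mouse 3 against 17.1, 17.9 and 18.5 FPKM in the others, and the gap of mouse 3 to the nearest of them was 0.862 of the range of the group. Chance flags about 1 in 20 groups. Hspa1a in the same mouse was at 5.09 FPKM, the lowest of its group.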

How the results depend on the processing

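Depth is unknown, and 3 or 4 mice a group limit the precision. Of the differences of single members under all alternatives, 958 kept direction and side of the threshold, 38 turned direction, 16 gained and 14 lost a call. Of counts, sums and ratios, 274 were the same, 14 moved, 2 turned and 8 lost their call. The 8 were all the log2 ratio of Mt1 to Mt2 in Cfb-/- diabetes with mice left out. An exact permutation of so few mice allows no p under 0.05, so these losses were fixed in advance. For single members, leaving out a mouse from outside the compared groups cannot change the difference, so part of the kept directions was fixed in advance. The cause of the other changes was not tested.

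The wider chaperone list had 19 calls in Cfb-/- diabetes with median-ratio scaling (10 as reported) and 13 in WT diabetes with quantile normalization (20 as reported). Of all tested genes, 4854 and 5358 were called in these 2 settings (5038 and 6879 as reported). Mt1 in WT diabetes also lost its call without a filter (adjusted p = 0.0546) and Hsp90aa1 in Cfb-/- diabetes with quantile normalization (-0.52, adjusted p = 0.0579). Small differences turned sign, to -0.037 for Hsph1 between diabetic genotypes with median-ratio scaling, and with quantile normalization to 0.050 for Hsp90aa1 in WT diabetes, 0.0080 for Hspa8 between control genotypes and 0.047 for Hspa8 between diabetic genotypes.

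Deviations of same-numbered mice from their group means correlated between -0.39 and 0.24. Differently numbered mice were not compared in this way, so these values cannot tell whether the replicate numbers pair the mice. With the replicate number as a block, 6278 of 14912 tested genes were called in WT diabetes, against 6879 without it. The wider list had 11 calls there, and 2 members were called instead of 3 (Mt1 at adjusted p = 0.0561). The members kept their number of calls elsewhere.

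Leaving out each mouse in turn gave 2 to 4 members called in WT diabetes and 3 to 8 in Cfb-/- diabetes. It gave 0 to 3 between control genotypes, 0 to 0 between diabetic genotypes and 0 to 2 for the interaction. In the same order, 4775 to 7503, 3716 to 5569, 1 to 1724, 1 to 6 and 0 to 4 of all tested genes were called. The wider list ranged from 10 to 23, 7 to 14 and 0 to 6 in the first 3 of these comparisons. It fell to 10 without WT control mouse 2, to 11 without WT control mouse 3 or WT diabetic mouse 2 or 3 and to 12 without WT diabetic mouse 1, and the 6 calls between control genotypes came without WT control mouse 1. The sum of Hspa1a and Hspa1b ranged from 1.23 to 1.74, -2.80 to -0.46, 1.70 to 4.04 and -0.47 to 0.011, in the order WT diabetes, Cfb-/- diabetes, control genotypes and diabetic genotypes. The log2 ratio of Mt1 to Mt2 in Cfb-/- diabetes ranged from -0.80 to -0.66, with exact permutation p of 0.0667 to 0.1, the smallest those numbers of mice allow.

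Single members turned sign in these ranges between diabetic genotypes for Mt1 (-0.057 to 0.32), Hspa1a (-0.20 to 0.15), Hspa8 (-0.19 to 0.064), Hsph1 (-0.20 to 0.16) and Hspb1 (-0.11 to 0.32). They did so in WT diabetes for Hsph1 (-0.29 to 0.085) and Dnajb1 (-0.13 to 0.020), in Cfb-/- diabetes for Hspa8 (-0.74 to 0.19), between control genotypes for Hspa8 (-0.64 to 0.29) and Hspb1 (-0.025 to 0.78), and in the interaction for Hspa8 (-0.36 to 0.57), Dnajb1 (-1.17 to 0.014) and Hspb1 (-0.66 to 0.15).

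Leaving out Cfb-/- control mice 2 and 3 was a choice made after seeing the data, and it leaves 1 mouse in that group. The wider list then had 5 calls in Cfb-/- diabetes, with the remaining control mouse assumed to vary like the other groups. In the same comparison the sum of Hspa1a and Hspa1b was 1.16 higher and the log2 ratio of Mt1 to Mt2 differed by -0.66. For the sum and the ratio, exact permutation with 1 control mouse allows no p under 0.05, so only the sizes are given. The differences in Cfb-/- diabetes then turned to 1.2 for Hspa1a, 1.12 for Hspa1b, 0.87 for Hspa8, 0.39 for Hsph1 and 0.85 for Dnajb1. Those between control genotypes turned to -0.36 for Hspa1a, -0.50 for Hsph1, -0.67 for Dnajb1 and -0.46 for Hspb1, and the interaction to 0.34 for Hspa1a, 0.52 for Hsph1, 0.90 for Dnajb1, 0.022 for Hsp90aa1 and 0.59 for Hspb1.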
